A study of Mus musculus with 8 samples.

Results

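Atf4, Atf5, Ddit3, Ppp1r15a, Ppp1r15b and Ifrd1 are 6 genes whose mRNAs carry short reading frames upstream of the coding sequence and are known to be translated under the control of those frames. They were chosen by name, as gene sums and as single transcripts, and make up 6 of the 18301 genes and 17 of the 60528 transcripts in the deposited table. They were followed in mouse neurons labelled as cortical and glutamatergic, differentiated in culture from CGR8 embryonic stem cells and harvested at day 8 in vitro. The cultures were labelled either as an Eif4g1/Eif4g3 double knockout (DKO) or as wildtype (WT). The proteins eIF4G1 and eIF4G3 are large scaffolds on which the cap-binding complex and the small ribosomal subunit meet.

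Ribosome footprints, the mRNA fragments protected by ribosomes, and total RNA were each sequenced from 2 DKO and 2 WT cultures, giving 8 libraries in 4 groups of 2. All cultures were kept in the same medium and were given cycloheximide, which arrests elongating ribosomes, at 100 µg/ml for 5 minutes. The labels give each library a culture code but do not say whether a code stands for a clone, and the code of WT replicate 2 is written in another form than the other 3. The p-values below therefore measure the spread between these libraries. The depth was 10490535 and 18381021 estimated counts in DKO footprints, 19753419 and 14450410 in WT footprints, 44786643 and 15862034 in DKO RNA, and 14762047 and 22352224 in WT RNA.

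The targeted genes were examined first, in CPM, which are counts scaled to a common library size. Eif4g1 stood at 154 and 287 CPM in DKO footprints, against 299.8 and 263 CPM in WT footprints, and at 125 and 305 CPM in DKO RNA, against 288 and 279.9 CPM in WT RNA. It was low in DKO replicate 1 and near the WT level in DKO replicate 2. Eif4g3 stood at 164 and 172 CPM in DKO footprints, against 169 and 153 CPM in WT footprints, with the groups overlapping. The series title names microexons in these genes, whose loss a count over the whole gene would not show, so these values do not check the labels, and DKO stands here for the libraries so labelled. Neuronal markers were abundant in all 8 libraries, and the 8 markers summed to 7016 and 7349 CPM in DKO footprints, against 7727 and 6375 CPM in WT footprints. Among markers of glutamatergic neurons the vesicular transporter Slc17a6 stood at 180 to 224 CPM in DKO RNA, against 78.0 to 166 CPM in WT RNA. Of the 5 such markers tested, only 1 had a positive log2 fold change of DKO over WT in RNA and 4 had negative ones (median -0.02). In footprints 3 were positive and 2 negative (median 0.08). The cortical marker Tbr1 and the transporter Slc17a7 stayed at or under 1.04 CPM in every library, while the GABA-synthesising enzyme Gad1 stood at 85.8 to 107 CPM in RNA. Markers of dividing cells were lower in DKO, with a sum of 420 and 413 CPM in DKO footprints, against 474 and 576 CPM in WT footprints, and all 7 that were tested had negative log2 fold changes without passing the test used below. Oligodendrocyte markers summed to 416 and 460 CPM in DKO footprints, against 545 and 734 CPM in WT footprints. Progenitor and radial glia markers summed to 3475 and 3862 CPM in DKO footprints, against 4362 and 4703 CPM in WT footprints, and were apart in RNA as well, at 2066 and 2031 CPM in DKO, against 2377 and 2551 CPM in WT. In these bulk samples fewer cells of a type and less RNA per cell cannot be told apart, and the part of cell composition in the values below was not tested.

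The 6 genes belong to the integrated stress response. Kinases that sense unfolded protein, lack of amino acids, double-stranded RNA or lack of haem phosphorylate the initiation factor eIF2, which lowers the supply of initiator tRNA to scanning ribosomes. Most translation then falls, but mRNAs with suitable upstream frames are translated more, because ribosomes that would have started at an inhibitory upstream AUG scan past it. ATF4 and ATF5 are transcription factors of the response, and in both mRNAs an inhibitory frame runs into the coding sequence. CHOP, the product of Ddit3, is a transcription factor induced downstream of ATF4. GADD34, from Ppp1r15a, and CReP, from Ppp1r15b, are subunits that direct protein phosphatase 1 to eIF2, with GADD34 induced by stress and CReP made all the time. IFRD1 is a transcriptional co-regulator, and in human cells its mRNA is known to be controlled by an upstream frame.

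Upstream AUG codons were located in the leaders, the stretches before the coding sequence, of the transcript with the most counts of each gene, in the GENCODE M21 annotation of GRCm38. Atf4 (ENSMUSG00000042406) lies at chr15:80255184-80257541 on the plus strand, Ddit3 (ENSMUSG00000025408) at chr10:127290774-127296288 on the plus strand and Ppp1r15b (ENSMUSG00000046062) at chr1:133131143-133139783 on the plus strand. Atf5 (ENSMUSG00000038539) lies at chr7:44812256-44816658, Ppp1r15a (ENSMUSG00000040435) at chr7:45522917-45526268 and Ifrd1 (ENSMUSG00000001627) at chr12:40201567-40248504, all on the minus strand. The start sites below are shown because they are the property by which the genes were chosen. Each is printed with 9 bases on each side as DNA letters, with the AUG in capitals, and windows longer than 21 bases on the genome span an intron.
Atf4 upstream AUG 1 (chr15:80255294-80255314, plus strand): ttttctctcATGgggccttta
Atf4 upstream AUG 2 (chr15:80255573-80255593, plus strand): gcggccaccATGgcgtattag
Atf4 upstream AUG 3 (chr15:80255672-80256213, plus strand): gcctaagccATGgcgctcttc
Atf4 coding start (chr15:80256290-80256310, plus strand): ccccacaacATGaccgagatg
Atf5 upstream AUG 1 (chr7:44816526-44816546, minus strand): gcccgcgcaATGgctctgtag
Atf5 upstream AUG 2 (chr7:44815276-44816415, minus strand): ttcgccgccATGgagtcctcc
Atf5 coding start (chr7:44815155-44815175, minus strand): gtcacagccATGtcactcctg
Ddit3 upstream AUG 1 (chr10:127290820-127290840, plus strand): gattatatcATGttgaagatg
Ddit3 coding start (chr10:127295332-127295352, plus strand): cgtgcagtcATGgcagctgag
Ppp1r15a upstream AUG 3 (chr7:45526078-45526098, minus strand): gagggcgacATGaacccgctg
Ppp1r15a coding start (chr7:45525371-45525391, minus strand): cccagacacATGgccccgagc
Ppp1r15b upstream AUG 3 (chr1:133131508-133131528, plus strand): ctagccgggATGgacctaacc
Ppp1r15b coding start (chr1:133131738-133131758, plus strand): ggaaaggagATGgagacagga
Ifrd1 upstream AUG 1 (chr12:40223147-40223167, minus strand): gagagaaacATGtatcgtttc
Ifrd1 coding start (chr12:40222945-40222965, minus strand): cggcccacgATGccgaagaac

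All 6 leaders held at least 1 upstream AUG and 5 held 2 or more. Of the 12442 tested genes with an annotated leader 51.6% held at least 1 and 29.0% held 2 or more. The 6 genes were chosen for known upstream frames, so an upstream AUG in each was given by the choice. All shares here are description only. The 14 upstream AUGs of the 6 genes opened 12 frames that end inside the leader and 2 that run into the coding sequence in another frame. Those 2 are the last upstream frames of Atf4 and Atf5, and such an overlapping frame was present in 17.0% of the leaders. In Atf4-201 it has 60 codons with its stop, starts 97 nt before the coding start and overlaps the coding sequence by 83 nt. In Atf5-201 it has 59 codons, starts 121 nt before the coding start and overlaps by 56 nt. The 2 transcription factor mRNAs thus share a very short frame of 4 codons followed by a frame of nearly equal length that covers the coding start, and Atf4 has a further frame of 37 codons before them. Of the 14 upstream AUGs 5 had a purine 3 bases before the AUG and a G right after it, the bases most favourable to initiation, and these 5 were the last 2 of Atf4, both of Atf5 and the last of Ppp1r15b. Of the 6 coding AUGs 2 had both bases, those of Ddit3 and Ppp1r15b.

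**Figure D1:**
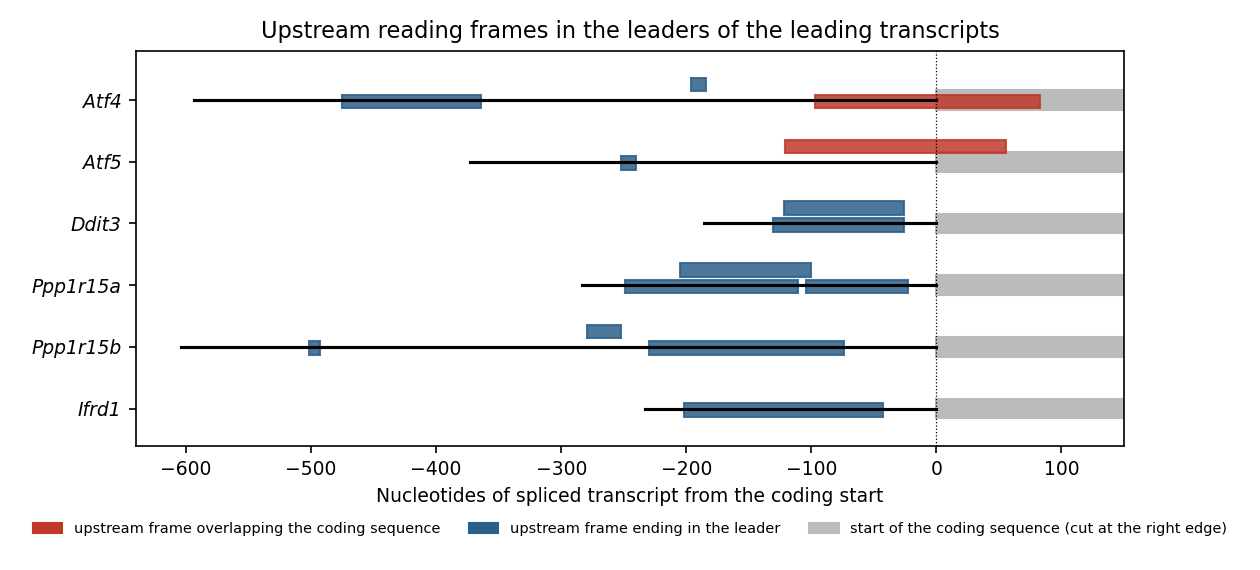
Upstream reading frames in the leader of the leading transcript of each gene, drawn along the spliced transcript in nucleotides from the coding start at 0 (black line, leader; grey, the first part of the coding sequence). Red frames overlap the coding sequence, by 83 nt in Atf4 and 56 nt in Atf5, and the other 12 frames (blue) end inside the leader.

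Ddit3-201 has a leader of 186 nt, near the median of 176 nt over all genes, with 2 upstream AUGs 9 bases apart in the same frame. They share a stop 26 nt before the coding start, giving frames of 35 and 32 codons, and the second AUG forms the end of the printed window. The annotation also holds the longer of these frames as a gene of its own, with a 105-nt transcript at chr10:127290829-127293753, which was not used here. The phosphatase subunits each have 3 upstream AUGs, in a leader of 283 nt in Ppp1r15a-201 and of 604 nt in Ppp1r15b-201, and the last upstream frame ends 23 nt before the coding start in Ppp1r15a and 74 nt before it in Ppp1r15b. Ifrd1-201 has a leader of 233 nt with a single frame of 53 codons. The share of the transcript taken by the coding sequence was 84.5% in Ppp1r15a, 60.7% in Atf4, 56.6% in Ddit3, 46.8% in Atf5, 39.9% in Ifrd1 and 37.4% in Ppp1r15b, beside a median of 51.1% over all genes. Counts in the deposited table are given per transcript, so footprints on upstream frames and on the coding sequence are added together in every value below.

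Compared per length, in TPM, where counts are divided by transcript length and scaled to the same sum in every library, the levels of the 6 genes followed nearly the same order in every group. Atf4 was highest, at 164 ± 11.6 TPM in DKO footprints and 142 ± 20.5 TPM in WT footprints (SD, n = 2 libraries each), and at 232 ± 32.4 TPM in DKO RNA and 180 ± 8.99 TPM in WT RNA. Ddit3 came next in all 4 groups and Ifrd1 after it, and in each group both libraries of Atf4 lay above both of Ddit3, and both of Ddit3 above both of Ifrd1. Ddit3 reached 94.1 ± 7.42 TPM in DKO footprints and 55.0 ± 0.12 TPM in WT footprints, while Ifrd1 stood at 41.1 ± 3.26 TPM in DKO footprints and 45.4 ± 0.793 TPM in WT footprints. The remaining genes lay between 10.2 and 15.7 TPM in footprints, and the order among Ppp1r15a, Ppp1r15b and Atf5 was not separated in WT footprints. Whole-transcript length was used for both assays, so footprint TPM understates genes with long untranslated regions such as Ppp1r15b and Ifrd1.

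In footprints the first question was whether these mRNAs carried more ribosomes in DKO neurons. For Ddit3, Ppp1r15a, Atf5 and Atf4, in that order of size, each DKO library lay above each WT library, while Ppp1r15b and Ifrd1 overlapped. For comparison, 16.3% of all 12898 tested genes had both DKO libraries above both WT libraries. None of the 6 passed the test in footprints (edgeR quasi-likelihood test, p-values adjusted over all genes by Benjamini-Hochberg, threshold 0.05), which called 0.00775% of all genes. At an unadjusted p under 0.05 there were 3 of the 6, beside 5.62% of all genes, and limma-voom called 0 and DESeq2 1 of them, Ddit3. Over all 12898 genes limma-voom called 1 and DESeq2 5. The median log2 fold change of the 6, DKO over WT, was 0.31, beside 0.00 over all genes tested.

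Ddit3 footprints stood at 53.4 and 48.9 CPM in DKO, against 29.5 and 29.6 CPM in WT. The WT libraries were almost equal and both DKO libraries lay well above them. The log2 fold change was 0.79 ± 0.10 (SE), which put Ddit3 at the 98.9th percentile of all genes and gave it the second smallest p among them, with an adjusted p of 0.0572 by edgeR. In edgeR it passed with no filter on low counts (0.78, adjusted p = 0.0160). With a filter on a mean count of 50 it passed as well (0.78, adjusted p = 0.0462, edgeR). It also passed with DESeq2 (0.79, adjusted p = 0.000242), so that the value was stable near 0.8 and the call was not. Over all genes no filter called 3, the filter on a mean count of 50 called 2 and DESeq2 called 5. Over all 21 alternatives the log2 fold change was 0.73 to 0.86.

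Ppp1r15a, the stress-induced phosphatase subunit, stood at 30.5 and 27.8 CPM in DKO footprints, against 22.6 and 17.7 CPM in WT footprints. Its groups did not overlap, and the WT libraries differed from each other by nearly as much as WT replicate 1 did from the DKO libraries. The log2 fold change was 0.52 ± 0.15, with an adjusted p of 0.836 (edgeR), and without both libraries of WT replicate 1 it was 0.73. Atf5 stood at 20.6 and 18.3 CPM in DKO footprints, against 12.6 and 16.6 CPM in WT footprints. The lower DKO library was close to the higher WT library, and the log2 fold change was 0.41 ± 0.17 (adjusted p = 0.849, edgeR). Atf4, the transcription factor upstream of Ddit3, stood at 215 and 236 CPM in DKO footprints, against 179 and 211 CPM in WT footprints. Its DKO and WT libraries nearly met, at 215 and 211 CPM, and the log2 fold change was 0.21 ± 0.12 (adjusted p = 0.849, edgeR).

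The remaining pair showed no separation of the genotypes in footprints. Ppp1r15b, the subunit made without stress, stood at 59.6 and 53.4 CPM in DKO footprints, against 49.97 and 57.4 CPM in WT footprints. Its libraries alternated between the genotypes, and the log2 fold change was 0.07 ± 0.10 (adjusted p = 0.934, edgeR). Ifrd1 stood at 74.7 and 79.4 CPM in DKO footprints, against 76.1 and 78.3 CPM in WT footprints. The WT libraries lay between the DKO libraries, and the log2 fold change was -0.00 ± 0.10 (adjusted p = 0.9998, edgeR).

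**Figure D2:**
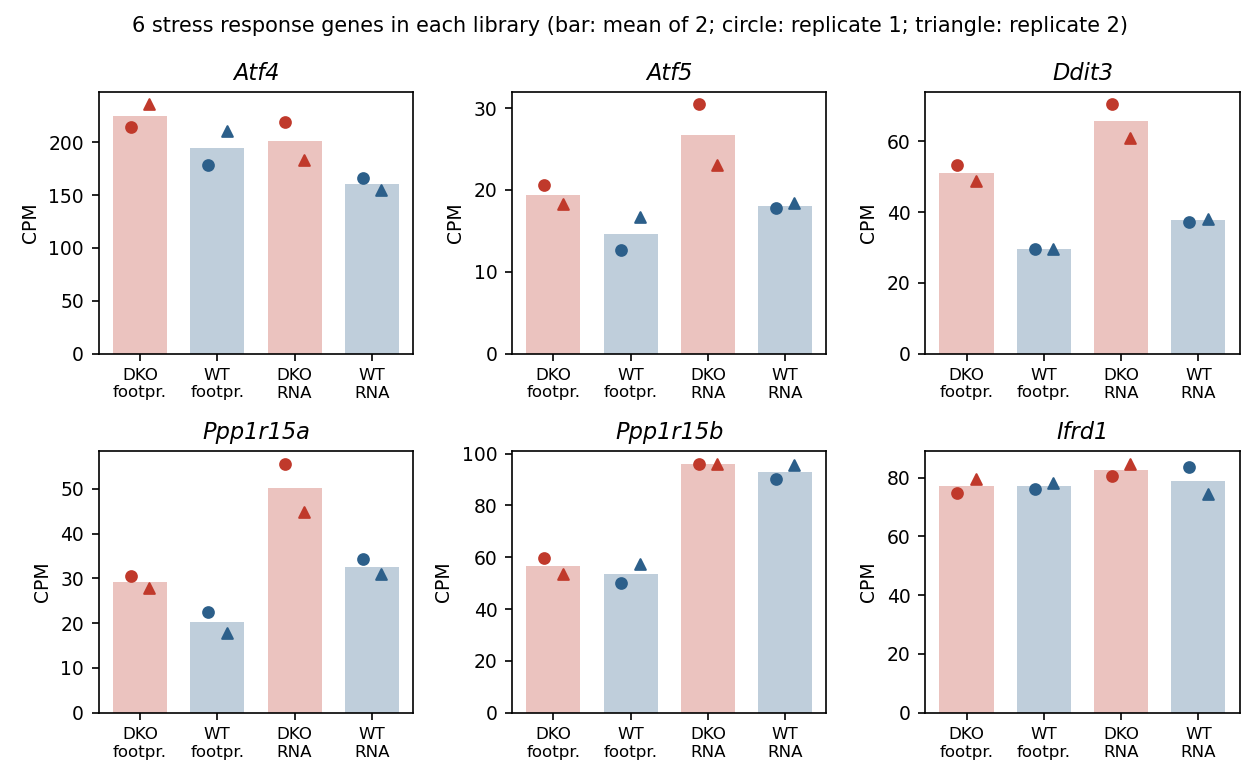
Normalised counts (CPM, linear axes from 0, each gene on its own scale) of the 6 genes in the 8 libraries, DKO in red and WT in blue, with footprints on the left and RNA on the right of each panel. Bars are means of 2 libraries and points the libraries; Ddit3 stands at 51.1 CPM in DKO and 29.5 CPM in WT footprints, and the DKO and WT points of Ifrd1 overlap in both assays.

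RNA was compared in the same way. Ddit3 RNA was at 70.5 and 60.9 CPM in DKO, against 37.2 and 38.1 CPM in WT, with the WT libraries nearly equal and both DKO libraries well above them. It rose by a log2 fold change of 0.81 ± 0.10, or 1.75-fold, and passed (adjusted p = 0.0291, edgeR). It was the only one of the 6 to pass, where 0.0155% of all genes did. Both DKO libraries lay above both WT libraries for 5 of the 6 genes, all but Ifrd1, beside 19.6% of all genes, and 4 of the 6 had an unadjusted p under 0.05, beside 5.57% of all genes. The median log2 fold change was 0.45, beside -0.00 over all genes.

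The RNA call of Ddit3 depended on single libraries, whereas its size did not. In edgeR the call was lost without RNA of DKO replicate 1 (log2 fold change 0.71) or RNA of WT replicate 1 or 2 (0.83 each). It was also lost without footprints of DKO replicate 1 or 2 (0.81 each), libraries that bear on it only through the shared fit. The same held without both libraries of DKO replicate 1 (0.69), DKO replicate 2 (0.90) or WT replicate 2 (0.82). Each of these fits leaves 1 library in a group. The adjusted p was 0.0843 with the RNA libraries alone and 0.0945 with protein-coding isoforms only (edgeR).

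Ppp1r15a RNA stood at 55.6 and 44.8 CPM in DKO, against 34.3 and 31.0 CPM in WT. The groups were apart by more than 10 CPM, the log2 fold change was 0.63 ± 0.14 and the p ranked 15th among all genes, but the adjusted p was 0.564 (edgeR). Without both libraries of WT replicate 1 the log2 fold change was 0.71. Atf5 RNA stood at 30.5 and 23.1 CPM in DKO, against 17.8 and 18.4 CPM in WT. DKO replicate 1 was well above the other 3 libraries, and the log2 fold change was 0.57 ± 0.16 (adjusted p = 0.851, edgeR), or 0.35 without both libraries of DKO replicate 1. Atf4 RNA stood at 219 and 184 CPM in DKO, against 166 and 155 CPM in WT. Again DKO replicate 1 was the highest, and the log2 fold change was 0.33 ± 0.12 (adjusted p = 0.851, edgeR), or 0.19 without that culture.

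Ppp1r15b RNA stood at 95.9 and 96.1 CPM in DKO, against 90.1 and 95.7 CPM in WT. The DKO libraries were above the WT libraries by less than 1 CPM at the nearest, and the log2 fold change was 0.05 ± 0.10 (adjusted p = 0.983, edgeR). Ifrd1 RNA stood at 80.6 and 84.7 CPM in DKO, against 83.5 and 74.5 CPM in WT. Its libraries overlapped, and the log2 fold change was 0.07 ± 0.09 (adjusted p = 0.956, edgeR).

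Several cultures stood apart from the rest in other genes, and the footprint values of the 4 leading genes were therefore also taken without each culture. Without both libraries of WT replicate 2, the culture with the most counts of dividing, oligodendrocyte and fibroblast markers in footprints, the log2 fold change in footprints was 0.79 for Ddit3, 0.61 for Atf5, 0.36 for Ppp1r15a and 0.33 for Atf4. Without those of DKO replicate 1, the culture with low Eif4g1, it was 0.73 for Ddit3, 0.46 for Ppp1r15a, 0.33 for Atf5 and 0.28 for Atf4. Without those of DKO replicate 2 it was 0.86 for Ddit3, 0.60 for Ppp1r15a, 0.51 for Atf5 and 0.15 for Atf4. Without those of WT replicate 1 it was 0.80 for Ddit3 and 0.73 for Ppp1r15a, but 0.23 for Atf5 and 0.12 for Atf4, so that the values of Atf5 and Atf4 moved by more than 1.5 times with that culture, and that of Atf4 also with WT replicate 2. The column header of the WT replicate 1 footprint library is written in another form than those of the other footprint libraries. A part of this in these values cannot be told apart from that of the culture. All 4 genes stayed positive in footprints and RNA without any of the 4 cultures.

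**Figure D3:**
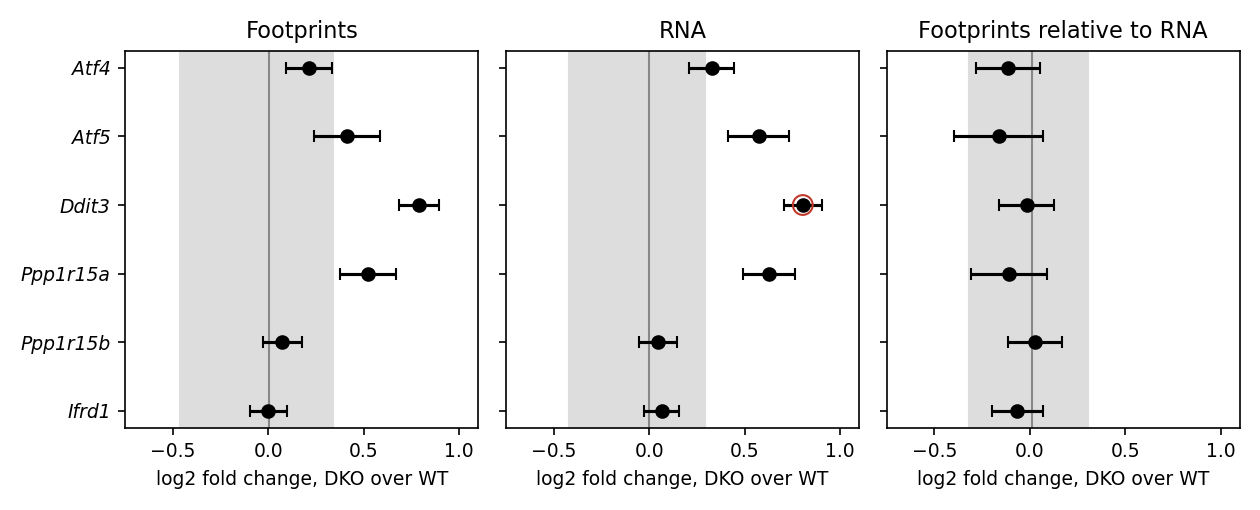
Log2 fold changes of DKO over WT in footprints, in RNA and in footprints relative to RNA, with bars of 1 SE from the edgeR fit. The grey band spans the 5th to 95th percentile of all 12898 genes, the line its median, and the red ring marks the 1 value that passed, Ddit3 in RNA at 0.81; the values relative to RNA of all 6 genes lie inside the band.

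Translational efficiency, the footprints relative to RNA over the whole transcript, was compared between the genotypes as an interaction. A shift of ribosomes from an upstream frame to the coding sequence of the same mRNA need not change it. None of the 6 genes passed (edgeR, adjusted p = 0.9997 for each), none had an unadjusted p under 0.05, and 0% of all genes passed in edgeR. DESeq2 and limma-voom called 0 of the 6 as well, and over all genes DESeq2 called 1 and limma-voom 0. The log2 change in efficiency, DKO over WT, was -0.02 ± 0.14 for Ddit3, -0.11 ± 0.20 for Ppp1r15a, -0.12 ± 0.17 for Atf4, -0.16 ± 0.24 for Atf5, -0.07 ± 0.13 for Ifrd1 and 0.03 ± 0.14 for Ppp1r15b. Each value was smaller than its SE, and 5 of the 6 were negative, with a median of -0.09 beside 0.01 over all genes. The Ddit3 difference of 0.79 in footprints thus stood beside one of 0.81 in RNA. TMM scaling sets the typical gene near 0, so a change shared by all mRNAs would not be seen. The interaction test took the 8 libraries as independent, although footprints and RNA were made from the same cultures. It called few genes even at an unadjusted p under 0.05, 0.853% of all. With a block that pairs the 2 libraries of each culture there were 300 of 12898, and 0 of the 6 passed after adjustment (edgeR). A p that misses the threshold here thus does not show that efficiency was equal.

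Within each genotype the ratio of footprint to RNA CPM placed the 6 genes relative to the typical gene. Atf4 had 0.981 and 1.28 footprint CPM per RNA CPM in the DKO cultures, against 1.08 and 1.36 in the WT cultures. The 2 cultures of a genotype differed by more than the genotypes did, and the log2 ratio was 0.16 ± 0.12 in DKO (adjusted p = 0.249, edgeR) and 0.28 ± 0.12 in WT (adjusted p = 0.0589, edgeR). Atf4 was the only one of the 6 with positive values in both genotypes, although with TMM scaling within each assay, which moves the median of all genes in DKO to -0.24, its DKO value was -0.07. Atf5 also has a frame of 4 codons followed by an overlapping frame, but not the first Atf4 frame of 37 codons. It had 0.677 and 0.791 in the DKO cultures, against 0.708 and 0.906 in the WT cultures. Its log2 ratio was -0.48 ± 0.16 in DKO (adjusted p = 0.0229, edgeR) and -0.31 ± 0.17 in WT (adjusted p = 0.122, edgeR). With the culture as a replicate block, which pairs the 2 libraries made from it, both passed in WT, as did 9450 of all 12898 genes. Atf4 was at 0.27 (adjusted p = 0.0270, edgeR) and Atf5 at -0.31 (adjusted p = 0.0260, edgeR). In WT, Atf4 also passed without footprints of WT replicate 1 (0.39), RNA of DKO replicate 1 or 2 (0.30 each) or both libraries of WT replicate 1 (0.47), and with RLE scaling, no filter or DESeq2 (0.30 to 0.33). It was 0.17 without footprints of WT replicate 2 and 0.12 without both libraries of that culture. Atf5 in WT passed without footprints of WT replicate 2 (-0.51) and with TMM scaling within each assay (-0.54), and was -0.12 without footprints, or both libraries, of WT replicate 1.

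As gene sums the phosphatase subunits had the lowest ratios. Ppp1r15b had 0.622 and 0.556 in the DKO cultures, against 0.555 and 0.600 in the WT cultures. Ppp1r15a had 0.548 and 0.621 in the DKO cultures, against 0.660 and 0.572 in the WT cultures. The DKO and WT cultures of both genes overlapped. The log2 ratio of Ppp1r15a was -0.79 ± 0.14 in DKO (adjusted p = 0.000358, edgeR) and -0.69 ± 0.14 in WT (adjusted p = 0.00126, edgeR), and that of Ppp1r15b was -0.77 ± 0.10 in DKO and -0.79 ± 0.10 in WT. Both genes were called lower than the typical gene in both genotypes under all 21 alternatives. The size for Ppp1r15b depended on the isoforms counted, and with protein-coding isoforms only, which leaves out a transcript with RNA but no footprint counts, it was -0.43 in DKO, no longer below Atf5 at -0.48, and -0.41 in WT. With all isoforms, Ppp1r15a lay at percentile 19.3 of all genes in DKO and 22.6 in WT, and Ppp1r15b at percentile 20.3 in DKO and 19.3 in WT, while the coding sequence takes 84.5% of the Ppp1r15a mRNA and 37.4% of that of Ppp1r15b.

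Ddit3 had 0.758 and 0.803 in the DKO cultures, against 0.794 and 0.776 in the WT cultures, and these 4 ratios were the closest together among the 6 genes. Its log2 ratio was -0.37 ± 0.10 in DKO (adjusted p = 0.00643, edgeR) and -0.35 ± 0.10 in WT (adjusted p = 0.0105, edgeR). Ifrd1 had 0.927 and 0.937 in the DKO cultures, against 0.911 and 1.05 in the WT cultures, near the typical gene, with log2 ratios of -0.10 ± 0.09 in DKO (adjusted p = 0.375, edgeR) and -0.03 ± 0.09 in WT (adjusted p = 0.773, edgeR). In all, 4 of the 6 genes were called lower in DKO, beside 33.3% of all genes, and 3 in WT, beside 33.8%. Large ratios in either direction are common, since 65.4% of all genes were called in DKO and 65.1% in WT. The DKO call of Atf5 was lost without footprints of DKO replicate 1 (-0.55) or 2 (-0.38) or RNA of DKO replicate 1 (-0.25), and without both libraries of DKO replicate 1 (-0.33) or 2 (-0.56). That of Ddit3 was lost without footprints of DKO replicate 2 (-0.29), RNA of DKO replicate 1 (-0.25) or both libraries of DKO replicate 1 (-0.31). The WT call of Ddit3 was lost without RNA of WT replicate 1 (-0.33) or 2 (-0.32), without both libraries of WT replicate 1 (-0.34) or 2 (-0.32), and with protein-coding isoforms only (-0.27).

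**Figure D4:**
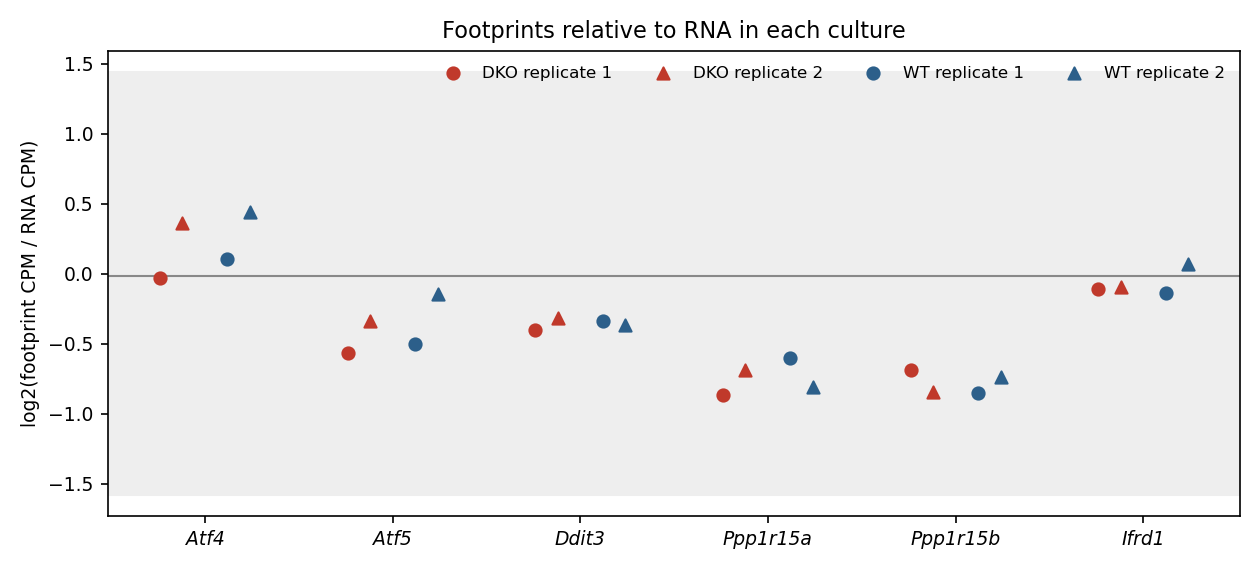
Log2 ratio of footprint CPM to RNA CPM in each of the 4 cultures (DKO red, WT blue; circles replicate 1, triangles replicate 2), with the 5th to 95th percentile of the WT ratio over all genes in grey and its median as a line. Ppp1r15a and Ppp1r15b lie lowest, between -0.87 and -0.60, and Atf4 is the only gene with values above 0 in 3 cultures.

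The 6 genes were set beside all genes with a leader, grouped by their number of upstream AUGs. The median log2 ratio was 0.19 in DKO and 0.18 in WT for 6028 genes without an upstream AUG, -0.05 in both for 2801 genes with 1, and -0.27 in DKO and -0.28 in WT for 3613 genes with 2 or more. The 2111 genes with an overlapping frame had a median of -0.24 in both genotypes. Atf4, at 0.16 in DKO and 0.28 in WT, lay above the median of the genes with an overlapping frame and below their upper quartile, which was 0.35 in DKO and 0.34 in WT. Atf5, which also has such a frame, lay below that median in both genotypes, and Ddit3, Ppp1r15a and Ppp1r15b lay below the median of the genes with 2 or more upstream AUGs. Ifrd1 was near the median of the genes with 1. The classes were not tested against each other, and the part of transcript length and coding share was not tested.

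Single transcripts showed where the gene sums came from, with the limit that kallisto divides reads among overlapping isoforms by estimate. Of the 17 transcripts of the 6 genes 11 had counts enough to be tested and 15 reached a mean of 1 CPM in an assay. None was called between DKO and WT in footprints, RNA or efficiency (edgeR, adjusted over 24861 transcripts), where 0.00402%, 0.0402% and 0% of all transcripts were called. Ddit3-201, the full-length mRNA, held 33.5% and 40.6% of the Ddit3 footprint counts in DKO, against 25.6% and 36.9% in WT. In RNA it held 85.8% and 79.7% of the Ddit3 counts in DKO, against 86.9% and 85.3% in WT. Most of the remaining Ddit3 footprint counts were assigned to Ddit3-203, at 66.5% and 58.4% in DKO, against 73.7% and 60.9% in WT, although its share of RNA counts was 9.44% and 14.6% in DKO, against 8.25% and 8.86% in WT.

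The larger estimated share thus fell to Ddit3-203 in footprints and to Ddit3-201 in RNA in all 4 cultures. Ddit3-203 is annotated with 119 nt of the same leader and 481 nt of the same coding sequence, without a stop and without a 3′ untranslated region, whereas Ddit3-201 has 200 nt of that region. All 600 nt of Ddit3-203 also lie in Ddit3-201. The split between them is thus an assignment by kallisto, and the values below do not show which isoform the reads came from. Footprints relative to RNA were called higher for Ddit3-203, at log2 values of 1.84 ± 0.22 in DKO (adjusted p = 0.000791, edgeR) and 2.44 ± 0.23 in WT (adjusted p = 0.000283, edgeR). For Ddit3-201 they were called lower, at -1.75 ± 0.23 in DKO (adjusted p = 0.00116, edgeR) and -1.99 ± 0.23 in WT (adjusted p = 0.000708, edgeR). In all, 5 transcripts of the 6 genes were called in DKO, where 52.9% of all transcripts were, and 4 in WT, where 53.6% were. Both isoforms had higher values in DKO than in WT without passing, Ddit3-201 at log2 fold changes of 1.02 ± 0.23 in footprints and 0.77 ± 0.22 in RNA, and Ddit3-203 at 0.67 ± 0.21 in footprints and 1.28 ± 0.22 in RNA (smallest adjusted p = 0.282, edgeR).

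**Figure D5:**
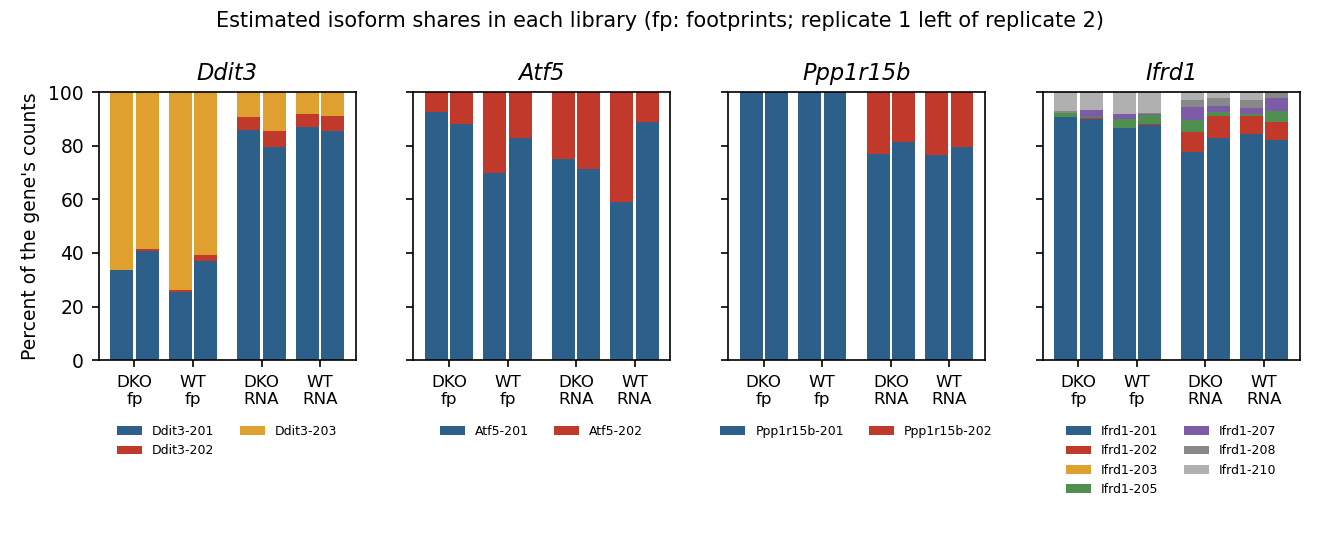
Percent of a gene's estimated counts given to each of its transcripts, in footprints (fp) and RNA of DKO and WT, replicate 1 left of replicate 2. Of the Ddit3 counts, Ddit3-203 takes 58.4% to 73.7% in footprints and 8.25% to 14.6% in RNA, and Ppp1r15b-202 has RNA counts only.

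Ppp1r15b-202, a transcript without an annotated coding sequence that shares 2899 nt of 3′ untranslated region with Ppp1r15b-201, had 1075 and 308 counts in DKO RNA, against 332 and 480 counts in WT RNA, or 18.7% to 23.5% of the counts of the gene. It had no footprint count in any library. That is 0 of 1477 Ppp1r15b footprint counts in DKO and 0 of 1677 in WT. All 3688 nt of Ppp1r15b-202 also lie in Ppp1r15b-201, including 403 nt of the leader and 386 nt of the coding sequence. The 0 is thus an assignment by kallisto and sets no limit on its share of footprints. Ifrd1-202, with 257 nt of coding sequence and 234 nt of 3′ untranslated region, had 0 and 5 footprint counts in DKO, against 0 and 5 in WT, beside 291 and 120 RNA counts in DKO, against 88 and 121 in WT. Ifrd1-210, a retained-intron transcript with 193 nt of the leader and 278 nt of coding sequence, had 50 and 90 footprint counts in DKO, against 109 and 85 in WT, and 111 and 32 RNA counts in DKO, against 41 and 0 in WT. The leading Ifrd1-201 held 90.5% and 90.02% of the Ifrd1 footprint counts in DKO, against 86.4% and 87.7% in WT.

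Atf5-202, the minor Atf5 transcript, has 6 upstream AUGs in a leader of 293 nt of which 116 nt are shared with Atf5-201, and its coding sequence is the same. It held 7.58% and 11.97% of the Atf5 footprint counts in DKO, against 30.4% and 17.0% in WT, and 25.1% and 28.6% of the RNA counts in DKO, against 40.9% and 11.2% in WT. The WT cultures differed more from each other than the DKO cultures did. Its footprints relative to RNA were called lower in DKO, at -2.13 ± 0.62 (adjusted p = 0.0289, edgeR), a call that was lost without any 1 of the 4 footprint libraries or 2 DKO RNA libraries (-2.33 to -1.77). Ppp1r15a-201 and Ppp1r15b-201, the full-length mRNAs, were called lower in both genotypes, at -0.98 and -0.64 in DKO and at -0.84 and -0.61 in WT, and the WT call of Ppp1r15a-201 was lost without footprints of WT replicate 2 (-0.57). Ppp1r15a-202 had 72 RNA counts over all libraries and no footprint count, Ifrd1-203 had no count at all, and these were the 2 transcripts under 1 CPM. The other 4 minor transcripts, 1 of Ddit3 and 3 of Ifrd1, had 12 to 98 footprint counts and 230 to 344 RNA counts over all libraries.

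The other genes of the pathway were taken from lists and read against the same comparisons. Of 33 tested target genes of ATF4 and CHOP, 29 had positive log2 fold changes in footprints (median 0.22) and 28 in RNA (median 0.16), and for 21 in each assay the groups were apart with DKO above WT, beside 16.3% of all genes in footprints and 19.6% in RNA. None passed in either assay (edgeR), and 12 in footprints and 9 in RNA had an unadjusted p under 0.05, beside 5.62% of all genes in footprints and 5.57% in RNA. The smallest p-values were those of Slc3a2, the heavy chain of several amino acid transporters, at 0.43 ± 0.10 in footprints, and Aldh1l2, a mitochondrial folate enzyme, at 0.51 ± 0.12. In RNA they were those of Chac1, which degrades glutathione, at 0.56 ± 0.13, and Atf3, a stress-induced transcription factor, at 1.11 ± 0.30. Atf3 had 16.1 and 11.2 CPM in DKO RNA, against 4.41 and 8.20 CPM in WT RNA, with no overlap.

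A further list held kinases and regulators that act on eIF2, with eIF2 and its exchange factor eIF2B. Of its 15 genes, 9 in each assay had positive log2 fold changes and 6 negative ones, with medians of 0.06 in footprints and 0.04 in RNA. None passed in footprints or RNA (edgeR). At an unadjusted p under 0.05 there were 0 in footprints, beside 5.62% of all genes, and 1 in RNA, beside 5.57%. That one was Eif2ak2, the kinase activated by double-stranded RNA, at 28.3 and 32.8 CPM in DKO RNA, against 35.2 and 42.5 CPM in WT RNA (-0.36 ± 0.14), and Impact, an inhibitor of GCN2 activation, had -0.22 ± 0.13 in RNA. Eif2ak3, the kinase of the endoplasmic reticulum, stood at 65.1 and 57.9 CPM in DKO footprints, against 53.8 and 54.9 CPM in WT footprints (0.18 ± 0.10). The counts do not measure phosphorylation. The 3 catalytic subunits of protein phosphatase 1, which pair with GADD34 and CReP, had log2 fold changes with a median of -0.11 in footprints and -0.03 in RNA. The 4 factors of reinitiation and non-canonical initiation, Eif2a, Eif2d, Mcts1 and Denr, had medians of 0.04 and 0.07 in footprints and RNA, and none of these 7 genes passed or had an unadjusted p under 0.05 in either assay (edgeR).

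The other arms of the unfolded protein response had small medians as well. Of 17 genes of the IRE1 and ATF6 arms 11 were positive in footprints (median 0.05) and 9 in RNA (median 0.03), and none passed (edgeR). At an unadjusted p under 0.05 there were 2 in footprints, beside 5.62% of all genes, and 1 in RNA, beside 5.57%. Xbp1, the transcription factor of the IRE1 arm, had 129 and 97.9 CPM in DKO footprints, against 91.3 and 80.1 CPM in WT footprints (0.40 ± 0.15), and the chaperone Hspa5 had 607 and 452 CPM in DKO footprints, against 420.5 and 425 CPM in WT footprints (0.32 ± 0.14). In both genes DKO replicate 1 was the highest library. Of 11 nonsense-mediated decay factors, the machinery that can degrade mRNAs with upstream frames, 8 were positive in footprints (median 0.11) and 6 in RNA (median 0.01), and none passed (edgeR). The kinase Smg1 stood at 15.0 and 14.1 CPM in DKO footprints, against 9.69 and 12.3 CPM in WT footprints (0.41 ± 0.14). It was the 1 with an unadjusted p under 0.05 in footprints, beside 5.62% of all genes, and there was 0 in RNA, beside 5.57%.

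Of 13 tested mRNAs of other genes described with controlling upstream frames, 6 were positive in footprints (median -0.05) and 7 in RNA (median 0.04), and none passed between the genotypes (edgeR). Slc7a1, an arginine and lysine transporter, was the 1 with an unadjusted p under 0.05 in each assay, beside 5.62% of all genes in footprints and 5.57% in RNA. It stood at 98.0 and 89.4 CPM in DKO footprints, against 81.0 and 61.3 CPM in WT footprints (0.39 ± 0.12), and had 0.38 ± 0.12 in RNA. The log2 ratio of footprints to RNA of the 13 mRNAs had a median of -0.61 in DKO and -0.49 in WT. That of the 6 stress response genes was -0.42 in DKO and -0.33 in WT, and the difference between the lists was not tested. Of the 13 mRNAs 8 in DKO and 7 in WT were called lower than the typical gene (edgeR), beside 33.3% of all genes in DKO and 33.8% in WT. They included the polyamine genes Amd1, at -1.62 ± 0.12 in DKO and -1.45 ± 0.11 in WT, and Azin1, at -1.39 ± 0.11 in both. The phosphatase Ptp4a1 was at -1.39 ± 0.10 in DKO and -1.48 ± 0.10 in WT.

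Across the 8 libraries the levels of Ddit3, Atf5 and Ppp1r15a gave the highest correlations among the 6. The Pearson correlation of log2 CPM was 0.91 between Atf5 and Ddit3, 0.87 between Ddit3 and Ppp1r15a and 0.85 between Atf5 and Ppp1r15a, whereas Atf4 reached 0.41 with Ddit3 and -0.48 with Ppp1r15b. These are descriptions over n = 8 libraries that share 4 cultures and fall into 2 assays. The genes most like each of the 6 over these libraries, out of 12897, were Ghsr (0.95) and Trim66 (0.94) for Ddit3, Crlf2 and Arid5a (0.96 each) for Atf5, and BC017158 (0.96) and Mrps12 (0.95) for Atf4. They were Iqsec3 and Efcab5 (0.99 each) for Ppp1r15a, A130010J15Rik and Zfp182 (0.999 and 0.998) for Ppp1r15b, and Synj2 (0.94) and Gfra4 (0.90) for Ifrd1. None of the 6 was among the 2 nearest genes of another.

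Promoter windows of 300 bases, from 250 bases before to 50 after the start, were matched by symbol in the RefSeq table of GRCm38.p6 for 5 of the 6 genes. They were searched on both strands for TGATGNAA, the composite element bound by C/EBP and ATF factors, for the ER stress element and for the AP-1 element TGANTCA. The first was present in 3.97% of all 32851 windows, the ER stress element in 0.119% and the AP-1 element in 7.81%, and these motifs can overlap. The 1 match among the genes was an AP-1 element, TGACTCA, at position -242 of the Ddit3 window. No match says only that these letters are not in these windows.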

How the data were processed

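Per the labels' protocols, footprints were prepared with the ARTseq kit, and the submitters' processing notes list kallisto, Bowtie, Trimmomatic and FastQC, with versions, genome build, transcript set and strand use not given in the sources used here. The authors deposited 1 table of estimated counts per Ensembl transcript, all whole numbers. kallisto divides reads among isoforms and similar genes, which makes isoform values uncertain.

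Of 60528 transcripts 60444 matched GENCODE M21 (GRCm38) and were summed per gene; the other 84, with 0.0765% to 0.151% of the counts of a library, were left out. All 8 libraries entered 1 edgeR 4.0.16 quasi-likelihood model (limma 3.58.1, R 4.3.3) with 4 group means, TMM scaling, robust dispersions and 4 residual degrees of freedom. Genes passed filterByExpr (minimum count 10) in both assays, which left 12898 tested and 5403 not tested. Contrasts were DKO over WT in footprints, RNA and their interaction, and footprints over RNA in each genotype, called at a Benjamini-Hochberg adjusted p under 0.05. The same model was fitted to 24861 transcripts. CPM use these scaling factors; TPM divide counts by the annotated transcript length. The procedure was tested on simulated data with 100 genes changed 2-fold and 100 changed 1.5-fold. It recovered 84 and 49 of them in footprints, 79 and 43 in RNA, 65 and 23 in efficiency and 82 and 49 in the WT ratio. It also called 23 unchanged genes in footprints, 15 in RNA, 10 in efficiency and 11 in the WT ratio. The simulation gave each unchanged gene the same mean in all 8 libraries and drew the libraries independently. In the data 65.1% of genes were called in the WT ratio and libraries share cultures, so these counts do not give the error rates in the data.

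The members and lists were chosen with earlier results of these data known. Named are all 6 genes, their transcripts of at least 1 CPM, the genes of each list with the smallest p, and the 2 genes with the highest correlation. Cebpa, Cebpb and Nbas were not analysed here. Footprint and RNA libraries of a culture were paired by the codes in the labels, except for DKO replicate 2, whose codes differ and whose libraries were paired by genotype and replicate number; differences between replicates correlated across genes between the assays at 0.605 in WT and 0.211 in DKO. Alternatives were other filters, RLE scaling, TMM per assay, DESeq2 1.42.0, limma-voom, 1 assay or genotype alone, protein-coding isoforms only, replicate blocks, and leaving out each library or culture.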

Additional observations from a re-analysis of the deposited data

How the results depend on the processing

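In footprints 1 of the 6 genes, Ddit3, was called with no filter, with a mean count of 50 and with DESeq2. Over all genes these settings called 3 of 17334, 2 of 11321 and 5 of 12898. In RNA 0 were called with the RNA libraries alone, with protein-coding isoforms only and with the replicate number as a replicate block. With the RNA libraries alone 1 of 13984 genes was called, and with protein-coding isoforms only 3 of 12400. The block by replicate number put Ddit3 at 0.80 (adjusted p = 0.0785, edgeR) and called 1 gene in footprints and 0 in RNA over all genes. The numbers pair no genotypes by label, and replicate differences correlated across genes at -0.132 in footprints and -0.128 in RNA. With the numbers crossed, a choice made after seeing the data, 0 of the 6 passed in footprints and 1 in RNA, of 3 and 7 over all genes. In the WT ratio 5 of the 6 were called with TMM within each assay or with the culture as a replicate block. Over all 12898 genes these settings called 8574 and 9450. With no filter 9 transcripts in DKO and 7 in WT were called in the ratio, with no count over all transcripts to set beside them. Apart from omitted libraries, signs turned for 4 results. Ifrd1 in footprints was 0.0016 with RLE, 0.0019 with DESeq2, 0.00055 with limma-voom and 0.0017 with protein-coding isoforms only, Ppp1r15b efficiency -0.029 with protein-coding isoforms only, Atf4 ratio in DKO -0.072 with TMM within each assay and Ifrd1 ratio in WT 0.023 with no filter; the cause was not tested.

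Leaving out a library or culture gave 0 to 2 of the 6 called in footprints and in RNA, with Ppp1r15a beside Ddit3 where there were 2, 2 to 4 in each ratio and 0 in efficiency, and 4 to 6 transcripts in the DKO ratio and 3 to 5 in the WT ratio. Ppp1r15a was called only without both libraries of WT replicate 1, which leaves no replication in WT. That fit also called far more of all genes than the main fit in both assays, so the call does not set Ppp1r15a apart. Ranges across 0 in footprints were -0.017 to 0.17 for Ppp1r15b and -0.041 to 0.046 for Ifrd1. In RNA the range was -0.017 to 0.19 for Ifrd1. In the ratios such ranges were -0.027 to 0.37 for Atf4 in DKO and -0.125 to 0.095 for Ifrd1 in WT. In efficiency they were -0.30 to 0.088 for Atf4, -0.38 to 0.038 for Atf5, -0.15 to 0.076 for Ddit3, -0.28 to 0.089 for Ppp1r15a, -0.064 to 0.13 for Ppp1r15b and -0.20 to 0.036 for Ifrd1. Of 723 recomputed values 631 kept direction and side of the threshold, 31 lost the call, 19 gained it and 42 turned sign. The median SE over all genes was 0.18 in efficiency, so small changes there were not detectable.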
